A study of Anolis carolinensis with 15 samples.

Results

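Hyaluronan is a long, unbranched sugar chain of the extracellular matrix that is spun out at the cell surface by hyaluronan synthases, held in the matrix and on cells by binding proteins, and cut by hyaluronidases. It is known as a loose, water-rich matrix of embryos, healing wounds and regenerating tissues, in which cells can migrate and divide. The genes described here encode its synthases (*has1*, *has2* and *has3*), the binding proteins versican (*vcan*), CD44 (*cd44*) and TSG-6 (*tnfaip6*), and the turnover genes *cemip*, *cemip2*, *hyal1* and *hyal2*. They were chosen by symbol for their place in the pathway, with earlier results of these data known, and 8 of the 10 symbols were among the 26523 genes of the count files. *hyal1* and *hyal2* were not listed under those symbols and were not analysed here.

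Counts were available for 15 libraries of sorted *col3a1*-positive cells from regenerating tails of the green anole, *Anolis carolinensis*, a lizard that regrows its tail from a blastema. Tails were collected 7, 14 and 28 days after amputation (D7, D14 and D28) without treatment, and at day 21 from lizards given phosphate-buffered saline (PBS) or zoledronic acid (ZA), a bisphosphonate drug that acts on osteoclasts, with 3 libraries (A, B and C) in each group. By the labels, ZA was injected into the body cavity from the week before amputation and then 3 times a week for 3 weeks. The study's methods give an age of 9 to 12 months, both sexes in equal numbers, and sorting of fixed cells by fluorescent probes. The cells are thus defined by RNA, and no lineage label or transgene marks them. The study's results name *col3a1*-positive and *krt5*-negative cells for the treatment libraries. For the time course they name *krt5*-negative cells as the target but *krt5*-positive cells as those profiled, so that gate is unclear. The treatment entry of ZA A reads PBS and that of PBS A reads N/A, and the groups here follow the titles.

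Total counts ranged from 4237978 to 12699682 per library. D28 A, PBS A and ZA A stood apart, with a median nonzero count of 21, 10 and 6 over genes that are rare in most libraries, against 3 to 4 in the other 12 libraries, and calls that rest on them, and several member values, are also given without them. All 9 fibroblast markers had counts, but the 7 listed of 12 epidermal markers were also above 0 in every group, with a summed level of 579 to 991 CPM (counts scaled to a common library size) at D7 and 3759 to 5547 CPM at D14. A *krt5*-negative gate, which is unclear for the time course, is meant to leave out *krt5*-positive epidermal cells. The study also describes epidermal cells with low *krt5*, which such a gate may not leave out. *krt5* itself was not listed under that symbol. A D14 library that lay apart in the study's principal component plot was sequenced before the rest of the time course, and which one it was is not given in the sources used here. In such bulk samples, fewer cells of a type and less RNA per cell cannot be told apart. The study describes repeated experiments for the time course and separate tails for each condition of the treatment, and the labels name no animals, so p-values measure the spread between these libraries.

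The first question was how expression of the pathway changed from the wound phase at D7 to the blastema at D14. Levels are CPM on library sizes scaled by TMM within each experiment, and a gene passed where its edgeR quasi-likelihood test had a Benjamini-Hochberg adjusted p under 0.05. *has1* and *has2* fell from D7 to D14 and no other member passed. Thus 2 of 8 members passed, both lower, against 2.4% of the 21326 genes tested that passed lower and 4.62% that passed in either direction. The groups did not overlap for 6 of 8 members, against 42.7% of all genes. Of these, 5 were lower at D14, against 18.8% of all genes, and 1 (*cd44*) was higher, against 24% of all genes. The median log2 fold change was -0.63 over the 8 members and 0.05 over all genes tested.

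*has1* encodes one of the plasma membrane enzymes that polymerise hyaluronan from UDP-sugars. Its level was 147, 244 and 239 CPM in the D7 libraries A, B and C, and 49.7, 64.4 and 78.8 CPM at D14. At D28 it was 52.4, 62.9 and 69.0 CPM. Every D7 library was thus above every later library of the time course, whereas the D14 and D28 ranges overlapped. *has1* was 3.27-fold lower at D14 than at D7 (log2 fold change -1.71, SE 0.31, edgeR adjusted p = 0.0130). It was 3.42-fold lower at D28 than at D7 (log2 fold change -1.77, SE 0.31, edgeR adjusted p = 0.00985). The D14 call was lost when D7 B, D7 C, D14 A or D14 B was left out, with a log2 fold change of -1.91 to -1.53 and an edgeR adjusted p of at most 0.0831 over the 9 omissions. The D28 call was lost only without D7 B, at an edgeR adjusted p of 0.0501, and it passed without D28 A.

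*has2*, the synthase that is essential for heart formation in the mouse embryo, lies on chromosome 4 at 18047586 to 18093541 of rAnoCar3.1.pri. Its level was 103, 134 and 139.9 CPM at D7 and 47.6, 45.9 and 66.2 CPM at D14. At D28 it was 71.0, 68.2 and 84.0 CPM, above every D14 library and below every D7 library. The fall from D7 to D14 was 2.36-fold (log2 fold change -1.24, SE 0.28, edgeR adjusted p = 0.0305). This call was lost when D7 B, D7 C or any one D14 library was left out, with an edgeR adjusted p of up to 0.164. The difference between D28 and D14 was 0.48 on the log2 scale (SE 0.28) and did not pass (edgeR adjusted p = 0.592). That between D28 and D7 was -0.75 (SE 0.28) and did not pass either (edgeR adjusted p = 0.113). The order of the group means was therefore D7, D28 and D14, in which D28 did not differ from its neighbours by the test.

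*has3*, the synthase that is best known from epithelia, showed no ordered pattern over time. Its level was 27.9, 12.3 and 45.0 CPM at D7, 33.7, 20.2 and 28.3 CPM at D14, and 31.9, 10.8 and 16.4 CPM at D28. The 3 ranges overlapped, with an edgeR adjusted p of 0.972 for D14 against D7 and 0.819 for D28 against D14. The log2 fold change of D28 was -0.48 against D14 and -0.53 against D7, and without D28 A it was -1.01 and -1.06, with an edgeR adjusted p of 0.280 and 0.148. In a test of any difference among the timepoints, *has1* (edgeR adjusted p = 0.00691) and *has2* (0.0400) passed, 2 of 8 members against 7.77% of all genes tested.

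Markers of cell types also moved between these timepoints. The summed level of the 9 fibroblast markers was 18610 to 21740 CPM at D7, 7646 to 8962 CPM at D14 and 25990 to 96020 CPM at D28. That sum is mostly *col1a1*, *col3a1* and *col1a2*. By log2 fold change 7 of the 9 were lower and 2 higher at D14 than at D7, and none passed. Of the 7 listed epidermal markers, 6 passed higher at D14 than at D7, against 474 of the 21326 genes tested. The part of these changes in the fall of *has1* and *has2* was not tested.

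**Figure D1:**
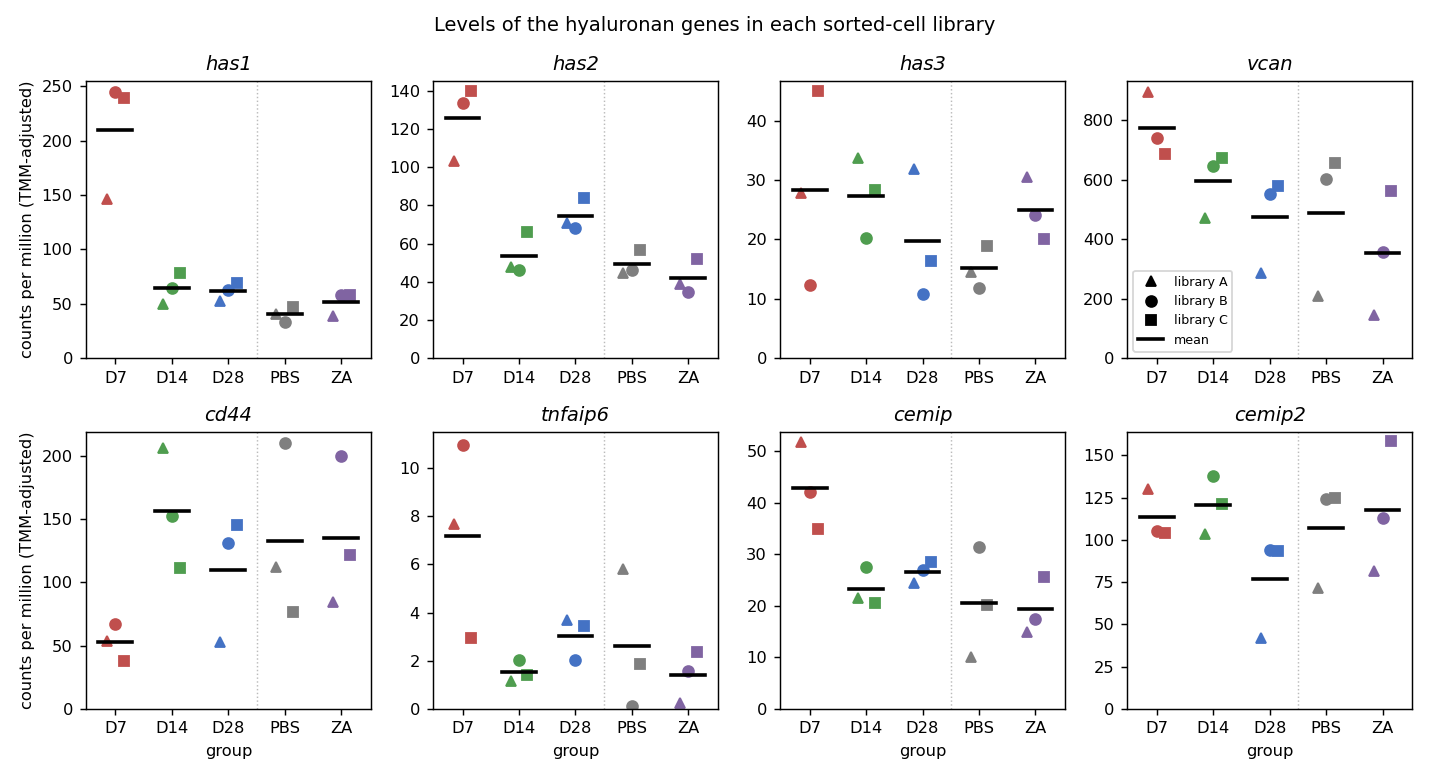
Level in CPM (linear axis from 0) of the 8 genes in each library, with the marker shape for the library letter and a black line at the group mean. D7, D14 and D28 stand left of the dotted line, and PBS and ZA, which were scaled separately, right of it. The D7 libraries of *has1* lie between 147 and 244 CPM, above all later time course libraries, and the 3 libraries of D14 lie above those of D7 for *cd44*.

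The ratio of *has1* to *has2* counts was taken within each library, where library size cancels. The ratio was chosen after its values were seen. It was 1.42, 1.83 and 1.71 at D7, 1.04, 1.40 and 1.19 at D14, and 0.739, 0.922 and 0.822 at D28. The ranges of the timepoints did not overlap. By these values *has1* counts exceeded *has2* counts in every D7 and D14 library and were under them in every D28 library. Counts were not scaled for transcript length, so a ratio of 1 does not mean equal expression of the 2 genes. The mean log2 ratio differed by -0.45 between D14 and D7 and by -0.55 between D28 and D14. Between D28 and D7 it differed by -1.0. Each exact two-sided permutation test gave p = 0.1, the smallest that 3 against 3 libraries allow. Groups that do not overlap always give this value, so these tests add no support for a ratio chosen after its values were seen.

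**Figure D2:**
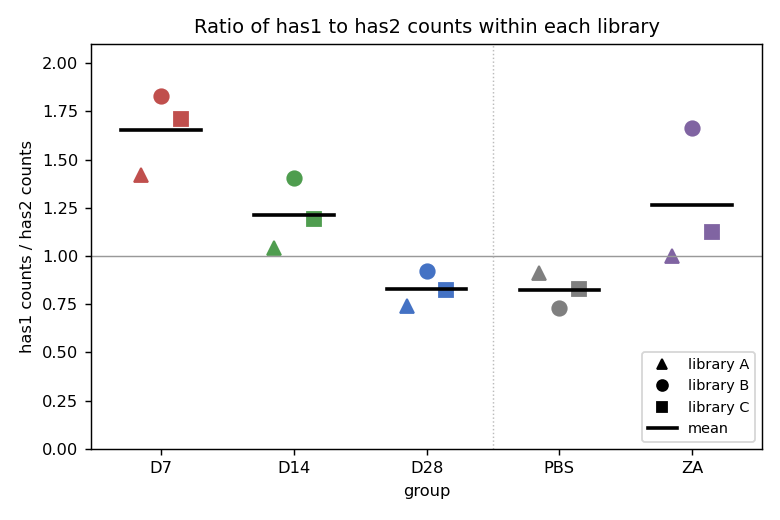
Ratio of *has1* to *has2* counts in each library (linear axis from 0, 1 point per library, black line at the group mean, grey line at equal counts). The D28 libraries lie between 0.739 and 0.922 and the PBS libraries between 0.728 and 0.910, whereas the ZA libraries lie between 1.0 and 1.66.

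Among the binding proteins, none passed. *cd44* encodes the main cell surface receptor for hyaluronan and lies on chromosome 1 at 292288190 to 292382117. Its level was 53.4, 67.1 and 38.0 CPM at D7 and 206, 153 and 112 CPM at D14. At D28 it was 52.7, 131 and 145 CPM. Each D14 library was above each D7 library, and at D28 library A was within the D7 range while B and C were above it. The difference between D14 and D7 was 1.57 on the log2 scale (SE 0.41), which just missed the threshold (edgeR adjusted p = 0.0506). It passed when D28 A, which stands apart, was left out (log2 fold change 1.57, edgeR adjusted p = 0.00346), and the D28 difference from D7 then also passed (1.39, edgeR adjusted p = 0.00872) where with all libraries it did not (1.05, SE 0.41, edgeR adjusted p = 0.124). Leaving out D28 A raised the share of all genes that passed to 17.1% for D14 and 20.2% for D28, both against D7.

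The higher *cd44* levels stood beside higher epidermal markers. The sum of those 7 markers was 999 CPM in D28 A, and 4141 and 5546 CPM in the other D28 libraries. The fit without D28 A thus left out the D28 library that was lowest in both *cd44* and these markers. Among these markers *tp63* and *dsp* were above 0 in every group, as were nearly all listed markers of the other cell types. The part of epidermal RNA in the level of *cd44* was not tested. RefSeq lists 13 transcripts of *cd44*, and counts per gene do not resolve its splice forms.

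*vcan* encodes versican, the large proteoglycan that binds hyaluronan through its end domain and fills provisional matrix. It lies on chromosome 2 at 284199090 to 284368159, where it overlaps a long noncoding RNA gene, LOC134296721, so that its reads are uncertain where strand was not used. Its level was 895, 741 and 686 CPM at D7, 473, 645 and 673 CPM at D14, and 288, 554 and 579 CPM at D28. Every D7 library was above every later one, but the spread within D14 and D28 was wide. The log2 fold change was -0.37 (SE 0.34, edgeR adjusted p = 0.581) for D14 and -0.71 (SE 0.34, edgeR adjusted p = 0.205) for D28, both against D7. Without D28 A the D28 value was -0.45 (edgeR adjusted p = 0.224).

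*tnfaip6* encodes TSG-6, an inflammation-induced secreted protein that transfers heavy chains of inter-alpha-inhibitor onto hyaluronan and so crosslinks it. It lies on chromosome 1 at 224070924 to 224099448 and had few reads, with 64, 92 and 21 counts at D7, 15, 27 and 17 at D14, and 27, 18 and 32 at D28. These were 7.66, 10.98 and 2.95 CPM at D7, 1.15, 2.03 and 1.41 CPM at D14, and 3.68, 2.03 and 3.43 CPM at D28. All D14 libraries were under all D7 libraries, and D28 overlapped with both. The log2 fold change of D14 against D7 was -2.22, with an SE of 0.76 that left it short of the threshold (edgeR adjusted p = 0.112).

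The turnover genes did not pass between any timepoints. *cemip* encodes a hyaluronan-binding protein that is needed for hyaluronan breakdown by human skin fibroblasts. Its level was 51.7, 42.0 and 35.0 CPM at D7, 21.5, 27.6 and 20.5 CPM at D14, and 24.4, 26.9 and 28.6 CPM at D28. All D7 libraries were above all later ones. The log2 fold change was -0.89 for D14 (SE 0.31, edgeR adjusted p = 0.119) and -0.69 for D28 (SE 0.31, edgeR adjusted p = 0.178), both against D7. Without D28 A, the D14 values of *cemip* (edgeR adjusted p = 0.0362) and *tnfaip6* (0.0401) passed as well, which made 5 of 8 members with *has1*, *has2* and *cd44*. As given above, 17.1% of all genes tested passed in that fit, against 4.62% with all libraries.

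*cemip2*, formerly named TMEM2, encodes a transmembrane relative of CEMIP with hyaluronan-degrading activity in the mouse, and lies on chromosome 2 at 244967015 to 245048718. Its level was 130.3, 105 and 104 CPM at D7, 103, 138 and 121 CPM at D14, and 42.1, 94.2 and 93.6 CPM at D28. The D7 and D14 ranges overlapped, and every D28 library was under every D7 and D14 library. Neither the difference from D14 (-0.65, SE 0.33, edgeR adjusted p = 0.520) nor that from D7 (-0.56, SE 0.33, edgeR adjusted p = 0.307) passed. Without D28 A, whose level was the lowest, they were -0.36 (edgeR adjusted p = 0.437) and -0.27 (edgeR adjusted p = 0.446). *has1*, *has3* and *cemip* are on sequence that the assembly does not place on a chromosome, and no overlap with other genes was looked for there.

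From the blastema at D14 to the regrown tail at D28, 0 of 8 members passed by edgeR, against 1.03% of all genes, and 0 of 8 had an unadjusted p under 0.05, against 11% of all genes. DESeq2 called 0 members as well. The groups did not overlap for 2 members, *has2* and *cemip2*, against 20.6% of all genes. *has2* was higher at D28, against 8.29% of all genes, and *cemip2* was lower, against 12.3%. The median log2 fold change was -0.20 over members and 0.04 over all genes. Between the ends of the course, D28 against D7, 1 of 8 members (*has1*) passed, against 4.21% of all genes that passed lower and 8.26% in either direction. The groups did not overlap for 5 members, all lower, against 14.1% of all genes that were lower and 25.1% in either direction. The median was -0.70 over members and 0.13 over all genes. The 3 comparisons share libraries, so their values are given side by side and are not independent.

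**Figure D3:**
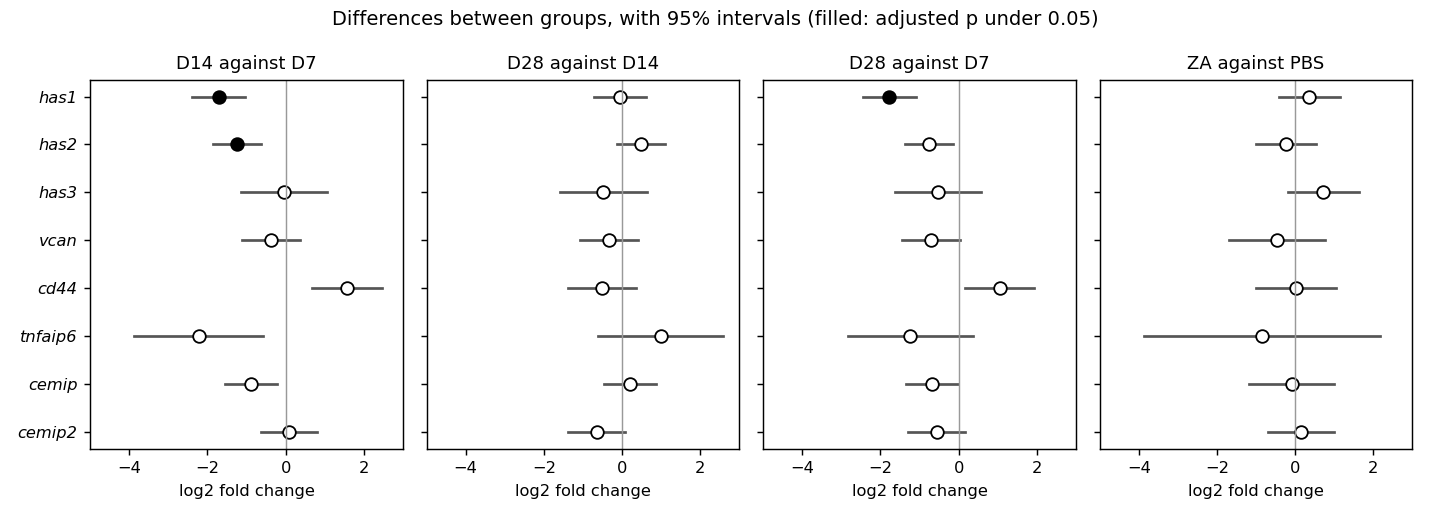
Log2 fold change of each of the 8 genes in the 4 comparisons, with 95% intervals as bars, filled where the edgeR adjusted p is under 0.05. *has1* (-1.71) and *has2* (-1.24) are filled for D14 against D7, *has1* (-1.77) for D28 against D7, and none for D28 against D14 or ZA against PBS. The small D14 difference of *has3* changes sign under other scalings.

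The second experiment asked what ZA changed at day 21. None of the 8 members passed by edgeR, against 0.0421% of the 18988 genes tested, and 0 of 8 had an unadjusted p under 0.05, against 4.72% of all genes. DESeq2 also called 0 members, as did the fit with the library letter as a block. *has3* was the 1 member of 8 whose groups did not overlap, against 10.8% of all genes, and it was higher with ZA, against 4.95%. With groups taken from the treatment entries, ZA A (30.6 CPM) counts as PBS and PBS A drops out, so that the *has3* groups overlap and its log2 fold change is 0.12. The median log2 fold change was -0.03 over members and -0.00 over all genes. The summed level of the 7 listed epidermal markers was 1686 to 5071 CPM in PBS and 4582 to 7083 CPM in ZA libraries. By log2 fold change 6 were higher with ZA and 1 lower, and none passed. That of the 9 fibroblast markers was 15350 to 42970 CPM in PBS and 7467 to 21470 CPM in ZA libraries. All 8 that were tested were lower, and none passed. The part of these changes in the values of the members was not tested.

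For the synthases, *has1* was 40.5, 33.6 and 46.8 CPM in PBS libraries and 38.9, 58.0 and 58.1 CPM in ZA libraries. *has2* was 44.5, 46.2 and 56.6 CPM in PBS and 38.9, 34.9 and 51.7 CPM in ZA libraries. *has3* was 14.6, 11.9 and 18.9 CPM in PBS and 30.6, 24.1 and 20.1 CPM in ZA libraries. Both groups overlapped for *has1* and *has2*, whereas every ZA library was above every PBS library for *has3*. The log2 fold change of *has3* was 0.72 (SE 0.41) with a 95% interval of -0.19 to 1.63. It was 0.36 for *has1*, with an interval of -0.41 to 1.14, and -0.23 for *has2*, with an interval of -0.99 to 0.53. The edgeR adjusted p was 0.9985 for each of the 3.

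The count ratio of *has1* to *has2*, again chosen after its values were seen, was 0.910, 0.728 and 0.827 in PBS libraries and 1.0, 1.66 and 1.12 in ZA libraries. Each ZA ratio was above each PBS ratio. The mean log2 ratio was higher by 0.59 with ZA, a 1.51-fold higher ratio (exact two-sided permutation p = 0.1, the smallest that 3 against 3 allow). As above, groups that do not overlap always give this p, so it adds no support. The difference was 0.37 without ZA B, which had the highest ratio, and up to 0.74 over the other omissions of a library.

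For the binding and turnover genes the 2 groups overlapped throughout. *cd44* was 112, 211 and 76.2 CPM in PBS and 84.3, 199.8 and 122 CPM in ZA libraries. The log2 fold change was 0.03 with a 95% interval of -0.99 to 1.04. *vcan* was 211, 601 and 657 CPM in PBS and 145, 359 and 561 CPM in ZA libraries, which gave a log2 fold change of -0.46 with an interval of -1.69 to 0.77. For both genes the spread within a group was wider than the difference between the groups. The *vcan* value was -0.09 without ZA A, -0.82 without PBS A and -0.42 without both. *cemip* was 10.05, 31.4 and 20.2 CPM in PBS and 14.9, 17.4 and 25.6 CPM in ZA libraries, which gave a log2 fold change of -0.09 with an interval of -1.17 to 1.0. *cemip2* was 71.2, 124 and 125 CPM in PBS and 81.7, 113 and 158 CPM in ZA libraries, which gave a log2 fold change of 0.14 with an interval of -0.70 to 0.99. *tnfaip6* had 58, 1 and 13 counts in PBS and 1, 19 and 26 counts in ZA libraries, which gave a log2 fold change of -0.85 with an interval of -3.87 to 2.17. Its direction rested on PBS A, without which the value was 0.57.

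Since PBS and ZA libraries of a letter deviated together, the direction was also read within letters. *vcan* and *has2* were lower with ZA in 3 of 3 letters and *has3* was higher in 3 of 3, which makes 3 of 8 members with 1 direction, against 32.8% of all genes tested. With the letter as a block the log2 fold change was -0.50 for *vcan* (edgeR adjusted p = 0.485), -0.24 for *has2* (0.856) and 0.73 for *has3* (0.615).

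Around these genes, the 7 enzymes that make the UDP-sugars used by the synthases were all tested, and 0 passed by edgeR in any comparison with all libraries. The nearest was *gfpt2*, which starts the hexosamine branch, at -1.43 for D14 against D7 (SE 0.39, edgeR adjusted p = 0.0581). Without D28 A it passed there (0.0132, with 17.1% of all genes) and for D28 against D14 (0.0297, with 4.09%). In that fit *uap1* passed for D28 against D7 (0.0169, with 20.2%). By DESeq2 *gfpt2* passed for D14 against D7 (adjusted p = 0.00743, with 12.3% of all genes) and for D28 against D14 (0.0171, with 3.62%). Of the 7 other hyaluronan receptors, 0 passed in the time course and 0 of the 5 tested passed with ZA. *layn* came near, at -1.45 for D14 against D7 (edgeR adjusted p = 0.0673). It passed without D28 A (0.0221), where 17.1% of all genes did, and by DESeq2 (adjusted p = 0.0148), where 12.3% did. *tlr4* had 0 counts in every D7 library, so no fold change is given for it against D7. For the other hyaluronan-degrading enzymes, 3 of 6 symbols were listed (*hyal3*, *hexa* and *gusb*), and 0 passed by edgeR with all libraries. For D28 against D7, *gusb* passed by DESeq2 (adjusted p = 0.0137, with 17.5% of all genes). It also passed without D28 A (edgeR adjusted p = 0.0499, with 20.2%).

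Partners of hyaluronan crosslinking were listed for 4 of 8 symbols, of which 3 were tested. *ptx3*, a pentraxin that binds TSG-6 and heavy chains, was 67.9, 69.8 and 100.4 CPM at D7 and 17.1, 18.2 and 23.5 CPM at D14. The groups did not overlap, and it fell by 2.02 on the log2 scale (SE 0.44, edgeR adjusted p = 0.0257). That call was lost without D7 B, D7 C or any one D14 library. *itih5*, which encodes a heavy chain family member, rose by 3.33 from D14 to D28 (edgeR adjusted p = 0.0173) and by 2.18 from D7 to D28 (edgeR adjusted p = 0.0296). The first of these calls was lost without D28 B or any one D14 library, and the second without D28 B or any one D7 library.

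Proteases of the ADAMTS family that cut versican and aggrecan were tested for all 6 symbols. *adamts4* was 1102, 1510.2 and 2198 CPM at D7, 242, 179 and 327 CPM at D14, and 366, 380.2 and 428 CPM at D28. It fell by 2.68 at D14 (edgeR adjusted p = 0.00629) and stood 2.04 lower than D7 at D28, a log2 fold change of -2.04 (edgeR adjusted p = 0.00982). Both calls held in 9 of 9 omissions of a library. *adamts1* fell at D14 by 1.48 on the log2 scale (edgeR adjusted p = 0.0205), and this was lost without D7 B, D7 C or any one D14 library. *adamts15* fell by 1.34 at D14 (edgeR adjusted p = 0.0382), which was lost without any one D7 or D14 library. It then rose by 3.33 to D28 (edgeR adjusted p = 0.00261) and was 1.99 above D7 (edgeR adjusted p = 0.00803), and both of these held in 9 of 9 omissions. *adamts5* rose by 1.95 from D14 to D28 (edgeR adjusted p = 0.0244), which was lost without D7 B or any one D14 library. Of the 6 genes, 0 passed with ZA.

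Ezrin, radixin and moesin link the tail of CD44 to actin. *ezr* was 21.6, 31.0 and 11.2 CPM at D7, 123, 157 and 103 CPM at D14, and 67.7, 203 and 157 CPM at D28. It rose by 2.58 at D14 (edgeR adjusted p = 0.0126), a call lost without D7 B, D7 C, D14 A or D14 B. It was 2.74 above D7 at D28 (edgeR adjusted p = 0.00898), which held in 9 of 9 omissions. *msn* was lower at D28 than at D7 by a log2 fold change of -1.16 (edgeR adjusted p = 0.0377), which passed in 2 of 9 omissions. As for *cd44*, the epidermal markers stood higher where *ezr* did, and their part was not tested.

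Link proteins and the other lecticans, which anchor to hyaluronan as versican does, were tested for 7 of 7 symbols. Aggrecan (*acan*), the lectican of cartilage, was 7.90, 34.0 and 17.7 CPM at D7, 23.4, 27.2 and 24.5 CPM at D14, and 92.6, 260.3 and 729.6 CPM at D28. *hapln1*, the cartilage link protein, was 10.5, 16.2 and 13.5 CPM at D7, 6.30, 8.64 and 8.82 CPM at D14, and 29.4, 64.7 and 211 CPM at D28. All D28 libraries were above all earlier ones for both genes. From D14 to D28 *acan* rose by 3.85 (edgeR adjusted p = 0.0262) and *hapln1* by 3.68 (edgeR adjusted p = 0.0174). Both calls were lost when any one D14 library was left out, and that of *acan* also without D7 C or D28 C. Against D7 the rises were 4.18 for *acan* (edgeR adjusted p = 0.00903), lost without D7 C, and 2.92 for *hapln1* (edgeR adjusted p = 0.0161), lost without any one D7 library.

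With ZA, *acan* was the only gene of these lists of pathway genes that passed. It was 547, 161 and 560.1 CPM in PBS and 25.3, 8.59 and 7.40 CPM in ZA libraries, and fell by 4.97 on the log2 scale (edgeR adjusted p = 0.0437). The call held in 1 of 6 omissions, that of PBS B, while the log2 fold change stayed between -5.72 and -4.65. Without PBS B 6 of 18499 genes passed, and in every other omission 0 of all genes tested did. The call was also lost without both A libraries (log2 fold change -5.47, edgeR adjusted p = 0.108) and with groups taken from the treatment entries, where 0 of 18347 genes passed. *hapln1* was 69.1, 30.9 and 116 CPM in PBS and 14.1, 5.29 and 7.21 CPM in ZA libraries, and its log2 fold change of -3.05 did not pass (edgeR adjusted p = 0.271). *hapln3* had -2.62 (edgeR adjusted p = 0.421). With the library letter as a block, *acan* (edgeR adjusted p = 0.00183), *hapln1* (0.0334) and *hapln3* (0.0463) passed, as did 0.216% of all genes. By DESeq2 *acan* (adjusted p = 8.67e-14), *hapln1* (0.000178) and *hapln3* (0.0035) also passed, as did 0.363% of all genes. Of the 10 listed of 11 cartilage markers, 5 passed higher at D28 than at D14, against 144 of 21326 genes. With ZA 1 (*col9a3*) passed lower, against 7 of 18988 genes. Not all went the same way, since *sox9* had a log2 fold change of -1.02 at D28 against D14 and *comp* 0.49 with ZA, neither of which passed. The summed level was 1012 to 1174 CPM at D14, 9146 to 11670 CPM at D28, 4826 to 35250 CPM in PBS and 921 to 1985 CPM in ZA libraries. Their part in these results was not tested.

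**Figure D4:**
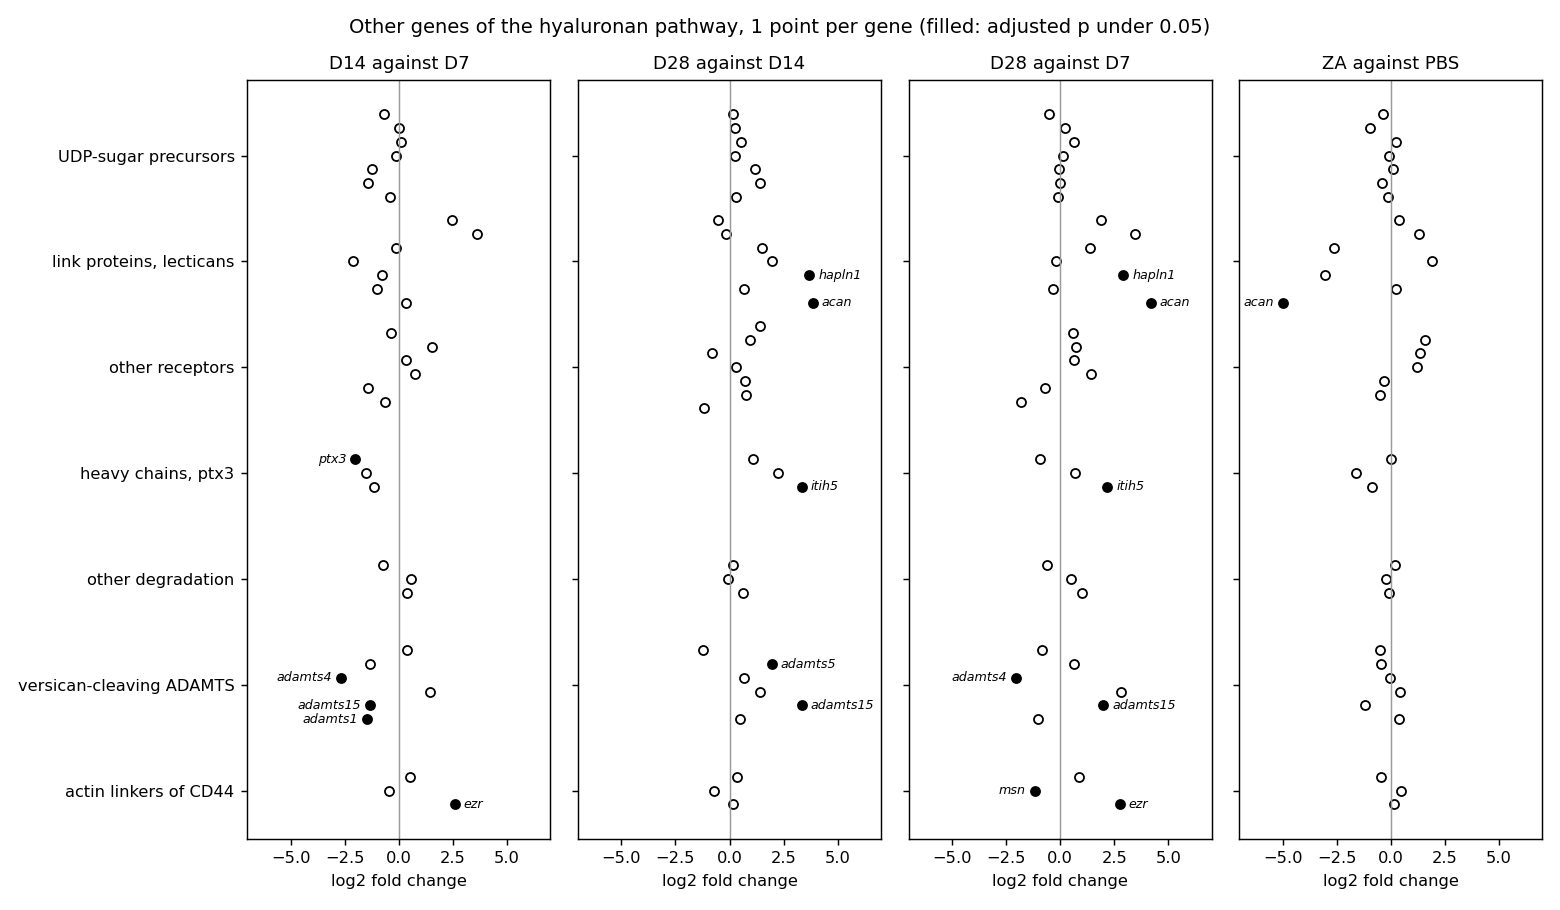
Log2 fold change of the other genes of the pathway, 1 point per tested gene grouped by list, in the 4 comparisons, filled and named where the edgeR adjusted p is under 0.05. Genes with at most 3 counts in either group are left out. The lectican *acan* is filled at 3.85 and 4.18 in the comparisons with D28 and at -4.97 for ZA against PBS, while points of the UDP-sugar precursors are all open.

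Genes most like *has2*, *vcan* and *cd44* in level were sought by Pearson correlation of log2 levels over the 15 libraries, as a description. The search covered 13509 genes with an annotated symbol, and genes named only by a LOC number were left out. All points share the same libraries, and the scaling and the 2 experiments enter every value. For *has2* these were *adamts4* (0.948), *zcchc24* (0.929) and *arhgap6* (0.922). For *vcan* they were *pdgfra* (0.955), the platelet-derived growth factor receptor of connective tissue cells, *synpo* (0.953) and *tnrc6b* (0.948). For *cd44* they were *fam83b* (0.924), *arap2* (0.923) and *aktip* (0.921). Both *vcan* and *pdgfra* were lowest of their groups in D28 A, PBS A and ZA A, the libraries that stood apart, and these enter their correlation.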

How the data were processed

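RNA was taken from fixed, probe-sorted cells with an FFPE kit and sequenced after ribosomal depletion with a stranded total RNA kit. Reads were aligned by the authors with STAR to rAnoCar3.1.pri, and the submitters' notes list SAMtools 1.17 and DESeq2 1.45.1. The deposited values were whole-number counts per gene, although the files are named as normalized, and were used as counts. The counting tool and its strand setting are not given in the sources used here, so genes that overlap or have near-identical copies are uncertain. Groups followed the titles. For PBS A and ZA A, the treatment given in the sample record differs from the title.

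A gene was tested where 3 or more libraries had 10 or more counts, with edgeR 4.0.16 (TMM, quasi-likelihood, R 4.3.3), separately for the 9 time course and 6 treatment libraries, and p-values were adjusted over all genes tested. The threshold was an adjusted p under 0.05. The SE was taken as the size of the log2 fold change over the square root of F. The fits were tested on simulated counts. All genes of the rule were named, and pathway genes where they passed or where their role was described. The members and lists were chosen with earlier results of these data known. Of 26523 genes, 26339 matched RefSeq by symbol, which gave coordinates. With group means removed, same-letter libraries of PBS and ZA had correlations of 0.152 to 0.241, a pairing found in the data and not stated in the labels, so a blocked fit was run. Alternatives were DESeq2 1.42.0, its size factors, library totals only, limma 3.58.1 voom with quantile normalization, no filter, a fold threshold, the block, and omitted libraries. Figures used matplotlib 3.10.9.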

Additional observations from a re-analysis of the deposited data

How the results depend on the processing

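For D14 against D7, the 2 members that passed became 4 with voom and quantile normalization, where 6.22% of all genes passed. They became 5 with DESeq2 (12.3% of all genes) and 1 with the replicate block (2.71%). With an absolute log2 fold change over 2 also required, 0 passed (2.39%). When single libraries were left out, 0 to 5 passed. It was 0 without D7 B (0.321%), D7 C (0.547%), D14 A (0.523%) or D14 B (0.625%). It was 1 without D14 C (1.49%) and 5 without D28 A (17.1%). For D28 against D7, 1 member became 0 with the fold threshold (4.27% of all genes) and 0 to 2 with single libraries left out. It was 0 without D7 B (1.52%) and 2 without D28 A (20.2%). For any difference, 2 became 4 with DESeq2 (18.1% of all genes) and 1 with the block (4.07%). With single libraries left out it was 0 to 3, with 0 without D7 B (1.77%). Time course libraries of the same letter correlated at -0.118 to 0.118, so their letters do not pair them, and with the block *has2* had an edgeR adjusted p of 0.0578 at D14. In the paired fit of ZA and PBS, 0 members passed, and the calls that the block changed are given with the link proteins.

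Directions that turned were all of values that had not passed. *has3* for D14 against D7 was 0.17 with library totals only, 0.19 with voom, 0.065 with the block and -0.41 to 0.45 over omissions, and *vcan* was 0.013 with voom. *cemip2* was -0.0092 to 0.21 for D14 against D7, and *has1* -0.22 to 0.10 for D28 against D14, over omissions. With ZA, *cemip* was 0.18 with voom, 0.011 with the block and -0.41 to 0.36 over omissions. *tnfaip6* was 0.037 with the block, 1.03 without PBS A and ZA A, 1.36 with groups taken from the treatment entries instead of the titles, and -1.42 to 0.57 over omissions. *cd44* was -0.32 to 0.53 and *cemip2* -0.12 to 0.35 over omissions. The causes were not tested. Of 504 member values under alternatives, 455 kept direction and side of the threshold. Most of these had not passed in the main fit either, so that share does not show that the calls were stable. Of the rest, 15 were lost calls, all of *has1* or *has2* against D7. Another 11 were values that came to pass, and 23 turned direction.

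Over all genes, D14 against D7 gave 986 calls, 2613 with DESeq2 and 68 to 3589 with a library left out, and D28 against D7 gave 1761, 3739 with DESeq2 and 291 to 4246. ZA against PBS gave 8, 24 without the filter, 41 with the block and 69 with DESeq2. With library totals only, the median log2 fold change of all genes at D14 against D7 moved from 0.05 to 0.26, and 628 calls were higher and 350 lower, against 474 and 512. Depth limits *tnfaip6* most, with 1 to 92 counts per library.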

Other observations

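The libraries that stood apart were also the lowest of their groups for 3 members, a pattern seen after the values were known. How many of all genes had this order was not counted, so it is not shown to be particular to the members. Outside the members, several listed genes had the same order, among them *pdgfra*, *adamts9*, *adamts4*, *ugdh*, *itih6* and *fap*. By contrast, *col3a1* was highest in each of these libraries. *vcan*, *cemip* and *cemip2* were each lowest in library A at D28, in PBS and in ZA. For *vcan* these libraries had 288, 211 and 145 CPM, against 554 to 579 CPM in the other D28 libraries, 601 to 657 CPM in PBS and 359 to 561 CPM in ZA. For *cemip2* they had 42.1, 71.2 and 81.7 CPM, against 93.6 to 94.2, 124 to 125 and 113 to 158 CPM. For *cemip* they had 24.4, 10.05 and 14.9 CPM, against 26.9 to 28.6, 20.2 to 31.4 and 17.4 to 25.6 CPM. *has2* showed no such order, since D28 A lay between its group's other libraries.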
